A study of Mus musculus with 16 samples.

Results

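The genes described here encode the machinery that carries newly made proteins into the endoplasmic reticulum (ER) and moves them between the ER and the Golgi. They were picked out by gene symbol, in a selection made with earlier results of these data known. The symbols were those of the coatomer subunits (Copa to Copz2 and Arcn1), Tram1, Sar1a and Sar1b, together with every symbol that begins with Sec11, Sec13, Sec16, Sec22, Sec23, Sec24, Sec31, Sec61, Sec62, Sec63, Ssr1 to Ssr4, Srp9, Srp14, Srp19, Srp54, Srp68, Srp72, Srpr, Spcs or Tmed. This gave 60 genes out of the 22180 measured by a probe set with a single gene symbol. Srp54a and Srp54b were found only on probe sets shared with other symbols and were not analysed here. The remaining copy, Srp54c, is nearly identical to them in sequence, so its value may include their signal.

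RNA of dendritic cells was read on 16 whole-transcript arrays. The cells were differentiated for 10 days from male C57/B6 bone marrow in 20 ng/ml GM-CSF. After that every culture was treated for 24 h, and each of the 4 groups holds 4 arrays. The IMQ+PA group received both agents, the IMQ group received IMQ alone, the PA group received PA alone, and the mock group received neither. PA is read as palmitic acid, a saturated fatty acid, and was given at 0.5 mM on albumin in a 6 to 1 molar ratio, while the labels do not say whether mock cells received albumin. IMQ is read as imiquimod, an agonist of the endosomal RNA receptor TLR7, with a dose of 3 uM in the series' design text and of 3 ug/ml in the protocol. Cultures of this kind hold macrophage-like cells beside dendritic cells and keep some granulocytes. The replicates are called biological with no mention of animals or cultures, so every p-value here reflects the spread among arrays, which may be technical.

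Proteins with a signal sequence are recognised on the ribosome by the signal recognition particle (SRP), docked at its receptor, and threaded through the Sec61 channel, where the signal peptidase removes the signal sequence. COPII coats then bud vesicles from the ER towards the Golgi, COPI coats return vesicles to the ER, and the p24 proteins (Tmed genes) travel in both as cargo receptors. Dendritic cells that sense a microbial product release cytokines and place new receptors on their surface through this route. The 60 genes fell into 7 role groups of 8 (SRP and its receptor), 11 (channel and its partners), 5 (signal peptidase), 14 (COPII), 9 (COPI), 10 (p24) and 3 (Sec22 homologs).

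All values are log2 RMA values, so a difference of 1 is a 2-fold change, and levels were compared between groups but not between genes. Il6, a cytokine gene that TLR agonists are known to induce, read 12.25 to 12.27 on the IMQ+PA arrays and 11.86 to 12.02 on the IMQ arrays. Cpt1a, a fatty acid oxidation gene that fatty acids are known to raise, read 9.94 to 10.00 on the PA arrays and 8.79 to 8.97 on the mock arrays. Without IMQ, the Il6 signal varied within groups, at 4.12, 4.0, 7.43 and 8.22 on PA replicates 1 to 4 and 7.57, 7.90, 7.71 and 4.32 on mock replicates 1 to 4. The main counts of called genes are therefore also given without PA replicates 3 and 4 and mock replicates 1, 2 and 3, which leaves 2 PA arrays and 1 mock array that is assumed to vary like the others. With these arrays left out, calls over all genes also became fewer in every comparison. Whether the members lost a larger share of their calls than all genes was not tested. The 95th percentile of 1443 sensory receptor genes, 4.93, served as the level under which a gene counts as dim if no group mean exceeds it. Sec16b, Tmed6 and Tmed11 were dim, which leaves 57 members with a measurable level.

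Adding PA to IMQ raised most of this machinery. With both agents 43 of the 60 genes rose and 0 fell relative to IMQ alone at a limma adjusted p under 0.05 (n = 4 arrays in each group), although Tmed8 was called lower after a repeated quantile normalization. That is 71.7% of the members, beside 11.6% of all 22180 genes called higher and 9.44% called lower in the same comparison. The median log2 change was 0.30 over the members and -0.02 over all genes. Of the genes that were not dim, 20.9% were called higher when dim genes were left out of the fit. For 44 members all 4 IMQ+PA arrays lay above all 4 IMQ arrays, which is 73.3% of the members beside 12.5% of all genes. The changes were moderate, since 14 of the called members reached 0.5 on the log2 scale and 0 reached 1. An array of bulk RNA cannot tell a larger share of one kind of cell from more RNA in each cell.

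**Figure D1:**
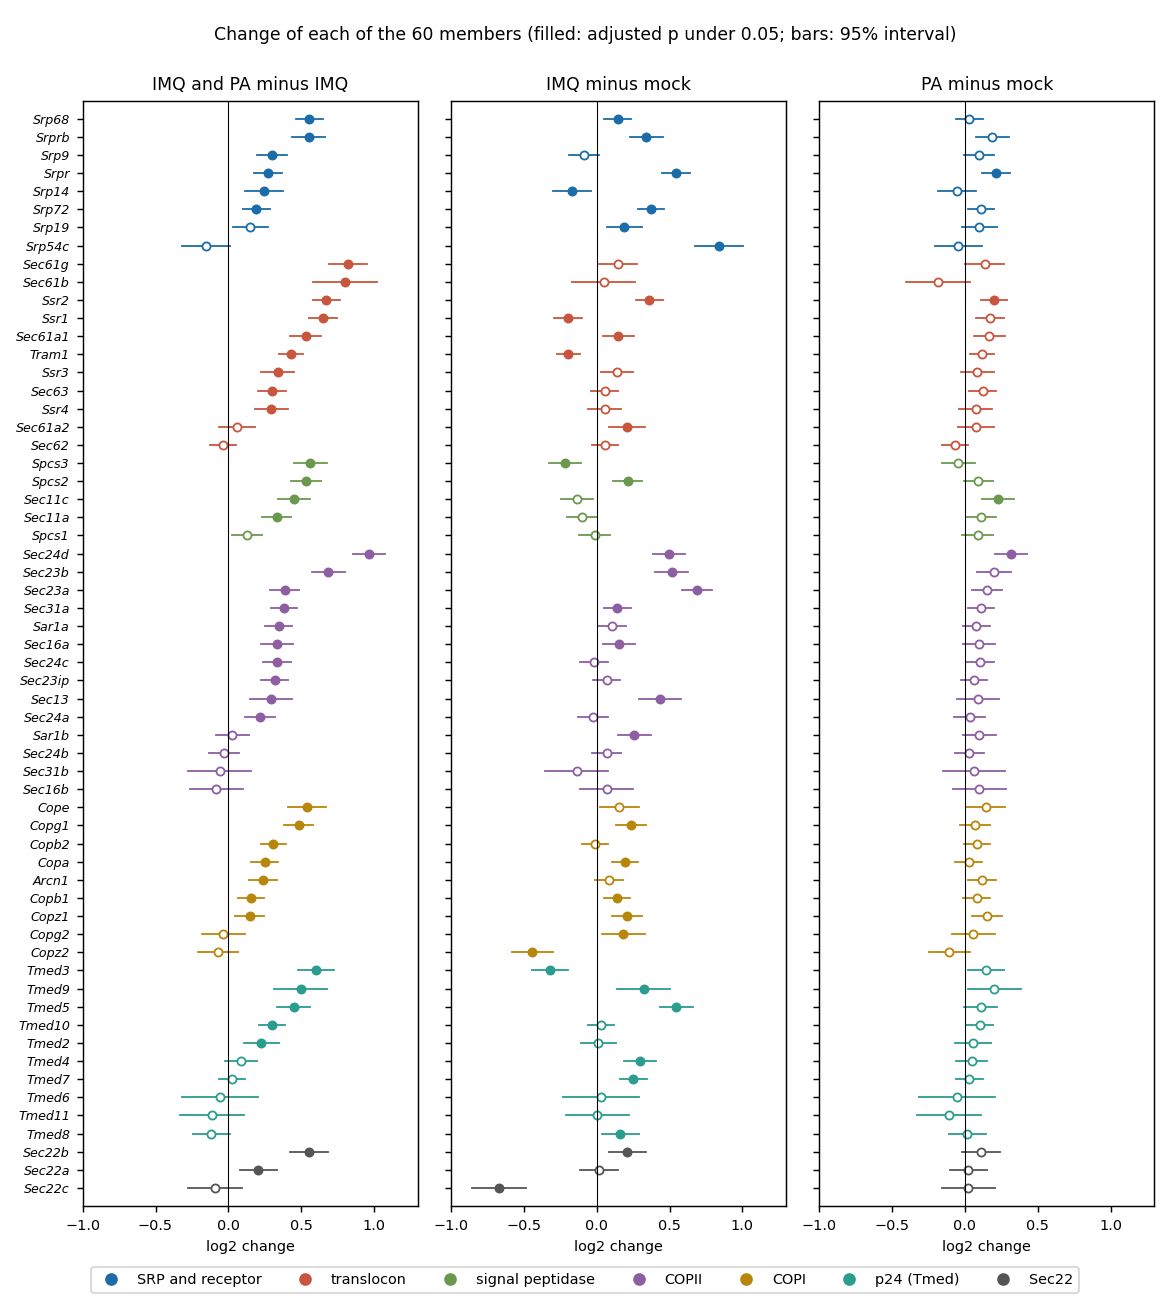
Log2 change of each of the 60 genes in 3 comparisons, IMQ+PA minus IMQ (left), IMQ minus mock (middle) and PA minus mock (right). Points are limma estimates from 4 arrays in each group, bars are 95% intervals, filled points passed an adjusted p of 0.05 and colours mark the role groups. In the left panel 43 points are filled and all lie above 0, in the middle panel 28 are filled above 0 and 7 below, and in the right panel 4 are filled.

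Markers of other cells were read in the same groups. The summed level of the 7 measured plasma and B cell markers, cells known for a large ER, was 8.12 to 8.32 on the IMQ+PA arrays and 8.30 to 8.37 on the IMQ arrays, with Jchain, Tnfrsf17, Pou2af1, Cd79a and Ms4a1 dim throughout. Among these 7 the 1 called was Sdc1, with a change of -0.16 ± 0.05 (adjusted p = 0.0411). The 9 measured dendritic cell and macrophage markers, of which 0 were dim, summed to 14.10 to 14.12 with IMQ+PA and 14.23 to 14.28 with IMQ. For 10 neutrophil markers, of which Ly6g, Camp, Ltf, Mpo and Retnlg were dim, the sums were 11.05 to 11.15 with IMQ+PA and 10.93 to 11.02 with IMQ. Of these markers 2 were called higher (S100a8 0.26 and Mmp8 0.13) and 1 lower (Camp -0.60). Of the dendritic cell and macrophage markers 0 were called higher and 4 lower (Csf1r -0.46, Itgam -0.43, Adgre1 -0.40 and Flt3 -0.34). The 5 fibroblast markers, with Pdgfra dim, summed to 8.07 to 8.26 with IMQ+PA and 8.47 to 8.49 with IMQ, and the 1 called, Dcn, had a change of -0.63 ± 0.14 (adjusted p = 0.00293). The 6 T and NK cell markers, 5 of 6 mast cell and basophil markers and the only measured erythroid marker, Klf1, were dim. The part of these marker shifts in the changes of the machinery was not tested.

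In the SRP and its receptor, 6 of 8 genes rose with PA added to IMQ. Srp68, which with Srp72 forms the large protein dimer of the particle, read 8.92, 8.92, 8.93 and 8.87 on the IMQ+PA arrays and 8.37, 8.32, 8.39 and 8.35 on the IMQ arrays. It read 8.21 to 8.29 on the PA arrays and 8.14 to 8.30 on the mock arrays. The IMQ+PA arrays stood alone above the other 3 groups, and the change of 0.56 ± 0.04 (SE, adjusted p = 1.09e-07) is 1.47-fold. Srprb, the receptor subunit that sits in the ER membrane, read 8.81, 8.65, 8.76 and 8.71 with IMQ+PA and 8.17, 8.18, 8.23 and 8.15 with IMQ. Its levels were 7.97 to 8.09 with PA and 7.75 to 7.93 with mock treatment. The 4 groups of Srprb did not overlap, with IMQ+PA highest, then IMQ, then PA and then mock, and its change with PA added to IMQ was 0.55 ± 0.05 (adjusted p = 1.08e-06).

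Srp9 and Srp14, the pair that slows translation while the ribosome docks, rose by 0.30 ± 0.05 and 0.24 ± 0.06 (adjusted p = 0.000251 and 0.00966). The receptor subunit Srpr rose by 0.27 ± 0.04 (adjusted p = 0.000317) and Srp72 by 0.19 ± 0.04 (adjusted p = 0.00346). The estimate for Srp68 was thus above that for its partner Srp72, a difference that was not tested. Srp19, an assembly subunit, had a change of 0.15 with a 95% interval of 0.03 to 0.27 and an adjusted p of 0.073, and Srp54c, a copy of the subunit that binds the signal sequence, had -0.15 ± 0.08 (adjusted p = 0.183).

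In the channel group 9 of 11 genes rose, with the highest group median after that of the signal peptidase (0.43 on the log2 scale, against 0.45). Sec61g, the small gamma subunit of the channel, read 9.46, 9.44, 9.50 and 9.49 on the IMQ+PA arrays and 8.64, 8.66, 8.53 and 8.78 on the IMQ arrays. Its PA arrays read 8.55 to 8.73 and its mock arrays 8.42 to 8.65. The IMQ, PA and mock groups overlapped each other while the IMQ+PA arrays stood apart, and the change was 0.82 ± 0.06 (1.77-fold, adjusted p = 7.6e-08). Sec61b, the beta subunit, read 6.55, 6.53, 6.65 and 6.56 with IMQ+PA and 5.74, 5.81, 5.88 and 5.68 with IMQ. It read 5.49, 5.37, 5.55 and 5.76 with PA and 5.75, 5.42, 6.00 and 5.74 with mock treatment. Its pattern was the same, with all IMQ+PA arrays above those of the other groups, and the change was 0.80 ± 0.10 (adjusted p = 2.52e-05). A dimmer probe set of Sec61b gave a difference of 0.56 with no overlap.

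Sec61a1, the channel-forming alpha subunit, rose by 0.53 ± 0.05 (adjusted p = 1.07e-06). The 4 subunits of the translocon-associated protein complex, which helps many signal sequences open the channel, all rose, by 0.67 (Ssr2), 0.65 (Ssr1), 0.34 (Ssr3) and 0.29 (Ssr4). Ssr2 read 11.17 to 11.24 on the IMQ+PA arrays, 10.50 to 10.59 on the IMQ arrays, 10.33 to 10.41 on the PA arrays and 10.12 to 10.22 on the mock arrays, so that the 4 groups formed 4 separate steps. A dimmer probe set of Ssr1 gave a difference of 0.47, also with no overlap. Tram1, which contacts nascent chains beside the channel, rose by 0.43 ± 0.04 (adjusted p = 4.83e-07), and Sec63, which works with Sec62 in import after translation, by 0.30 ± 0.04 (adjusted p = 9.2e-05). Sec62 itself had a difference of -0.04 (95% interval -0.13 to 0.05) and the alpha subunit homolog Sec61a2 one of 0.06 (-0.06 to 0.18), neither past the threshold.

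Of the signal peptidase genes 4 of 5 rose. Spcs3, a subunit of the complex, read 9.53, 9.55, 9.74 and 9.73 on the IMQ+PA arrays and 9.07, 9.01, 9.12 and 9.09 on the IMQ arrays, with 9.23 to 9.27 on the PA arrays and 9.27 to 9.31 on the mock arrays. Here IMQ alone was the lowest group and IMQ+PA the highest. The change with PA added to IMQ was 0.56 ± 0.05 (1.48-fold, adjusted p = 7.24e-07). Spcs2 read 9.80, 9.81, 9.91 and 9.87 with IMQ+PA and 9.35, 9.29, 9.28 and 9.35 with IMQ, with 9.11 to 9.27 under PA and 9.05 to 9.16 under mock treatment. Its change was 0.53 ± 0.05 (adjusted p = 4.69e-07), again with the IMQ+PA arrays on their own, and 0.61 on a dimmer probe set. The alternative catalytic subunits Sec11c and Sec11a rose by 0.45 ± 0.05 and 0.33 ± 0.05 (adjusted p = 7.63e-06 and 8.45e-05), and Spcs1 had a difference of 0.13 (95% interval 0.02 to 0.23, adjusted p = 0.0781).

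Of the COPII genes 10 of 14 rose. Sec24d, one of 4 Sec24 cargo adaptors of the inner coat, read 9.38, 9.32, 9.42 and 9.29 on the IMQ+PA arrays and 8.40, 8.35, 8.46 and 8.36 on the IMQ arrays. It read 8.12, 8.18, 8.25 and 8.30 with PA and 7.88, 7.84, 7.97 and 7.89 with mock treatment. The 4 groups did not overlap, and the gap between IMQ+PA and the rest was the widest. Its change with PA added to IMQ, 0.96 ± 0.05, was the largest of the 60 (1.95-fold, 95% interval 1.81 to 2.10, adjusted p = 1.38e-09). Sec23b, the GTPase-activating partner of Sec24, read 8.55, 8.49, 8.46 and 8.49 with IMQ+PA and 7.80, 7.80, 7.84 and 7.81 with IMQ, against 7.40 to 7.60 with PA and 7.23 to 7.43 with mock treatment. Only the PA and mock groups of Sec23b overlapped, and its change was 0.69 ± 0.05 (1.61-fold, adjusted p = 1.09e-07).

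The other inner coat subunits that rose were Sec23a (0.39), Sec24c (0.33) and Sec24a (0.22). The outer coat subunits Sec31a and Sec13 rose by 0.38 and 0.29, and the GTPase Sar1a, which starts coat assembly, by 0.35. Sec16a, the scaffold of ER exit sites, rose by 0.34, and Sec23ip, a Sec23-binding protein, by 0.32, and the adjusted p of all 8 lay between 6.18e-06 and 0.00501. Sar1b (0.03, 95% interval -0.09 to 0.14) and Sec24b (-0.03, -0.13 to 0.07) had intervals close around 0. The intervals were wider for Sec31b, with an estimate of -0.06 ± 0.10, and for Sec16b, which was dim, with -0.08 ± 0.09.

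Promoter windows from RefSeq (GRCm38.p6), reaching from 250 bases before to 50 bases after the annotated start, were found for 49 of the 60 genes. They were searched on both strands for sites known to be bound by factors of the unfolded protein response. The element called UPRE, TGACGTG, whose letters TGACG are also the half-site of CREB and ATF factors, was present in 6 of the 49 (Copb1, Copb2, Sec16b, Sec23a, Sec24d and Srpr). That is 12.2%, beside 2.22% of 27025 genes with such windows, which were not matched to the members in expression or base composition. The stretches upstream of the start that hold it are shown for Sec24d, the gene with the largest change, at chr3:123267440-123267495, and for Sec16b, a COPII gene that was dim in every group, at chr1:157506722-157506788. Both are on the plus strand and run 5′ to 3′, with the element in capitals, at positions -26 to -20 from the start of Sec24d and -44 to -38 from that of Sec16b.
Sec24d: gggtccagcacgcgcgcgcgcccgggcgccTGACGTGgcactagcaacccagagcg
Sec16b: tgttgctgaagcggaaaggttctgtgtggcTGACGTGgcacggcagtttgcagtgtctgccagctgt
With PA added to IMQ, 5 of the 6 genes with the element rose, beside 43 of all 60 members (71.7%). These were Sec24d (0.96), Sec23a (0.39), Copb2 (0.31), Srpr (0.27) and Copb1 (0.16, a call lost without IMQ replicate 2), and Sec16b was dim. A link between the element and the rise was not tested. ERSE, read as CCAAT and CCACG with 9 bases between them, was in 0 of the 49 windows and 0.137% of all genes. ERSE-II, ATTGG and CCACG with 1 base between them, was in 0 of the 49 and 0.0444% of all genes, and CARE, TGATGNAAT, in 0 of the 49 and 1.08% of all genes. A match is a run of letters, not a measured binding site, and other regions of these genes were not searched.

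In the COPI coat 7 of 9 genes rose. Cope, the epsilon subunit, read 9.61, 9.62, 9.60 and 9.55 on the IMQ+PA arrays and 9.15, 9.02, 9.13 and 8.92 on the IMQ arrays, with 8.96 to 9.11 on the PA arrays and 8.74 to 8.97 on the mock arrays. The 3 groups other than IMQ+PA overlapped one another, and the change was 0.54 ± 0.06 (1.45-fold, adjusted p = 7.89e-06). Copg1, a gamma subunit, read 9.15, 9.09, 9.16 and 9.05 with IMQ+PA and 8.75, 8.63, 8.59 and 8.55 with IMQ, beside 8.43 to 8.51 with PA and 8.37 to 8.41 with mock treatment. Its groups did not overlap, and its change was 0.48 ± 0.05 (adjusted p = 1.71e-06). The other risers were Copb2 (0.31), Copa (0.25), Arcn1, the delta subunit (0.24), Copb1 (0.16) and Copz1 (0.15). The call on Copb1 was lost without IMQ replicate 2, and that on Copz1 without any one of IMQ+PA replicates 1, 3 and 4 and IMQ replicates 3 and 4. A dimmer probe set of Copz1 gave 0.11 with overlapping arrays, and the mean of both probe sets of Copz1 was not called (0.13, adjusted p = 0.317). Copg2 had a difference of -0.03 (95% interval -0.18 to 0.11) and Copz2 of -0.07 ± 0.07, both short of the threshold.

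Among the p24 cargo receptors 5 of 10 rose, the smallest share of any role group with 5 or more genes. Tmed3 read 9.11, 8.95, 9.12 and 8.92 on the IMQ+PA arrays and 8.50, 8.34, 8.49 and 8.37 on the IMQ arrays. The PA arrays read 8.85, 8.85, 8.90 and 8.95 and the mock arrays 8.67, 8.77, 8.78 and 8.76. IMQ alone was the lowest group, while IMQ+PA and PA overlapped, and the change with PA added to IMQ was 0.60 ± 0.06 (1.51-fold, adjusted p = 1.22e-06). Tmed9 read 8.84, 8.86, 9.03 and 8.62 with IMQ+PA and 8.27, 8.46, 8.34 and 8.28 with IMQ, with 8.12 to 8.39 under PA and 7.90 to 8.13 under mock treatment. Its arrays spread more widely, and its change was 0.50 ± 0.09 (adjusted p = 0.000435), with 0.30 on a second, dimmer probe set. Tmed5 (0.45), Tmed10 (0.30) and Tmed2 (0.22) also rose, while 2 dimmer probe sets of Tmed10 gave 0.32 and -0.07 and one of Tmed2 gave 0.14, all with overlapping arrays. Tmed4 (0.09), Tmed7 (0.02), Tmed8 (-0.12) and the dim Tmed6 (-0.06) and Tmed11 (-0.11) did not pass the test.

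Of the Sec22 homologs, Sec22b is the SNARE that fuses vesicles between the ER and the Golgi and has been studied in dendritic cells for its part in cross-presentation. It read 8.61, 8.57, 8.55 and 8.65 on the IMQ+PA arrays and 8.09, 8.06, 8.13 and 7.88 on the IMQ arrays, with 7.86 to 8.04 on the PA arrays and 7.77 to 7.88 on the mock arrays. Its IMQ+PA arrays stood apart and its change was 0.55 ± 0.06 (1.47-fold, adjusted p = 4.87e-06). Sec22a read 6.65, 6.62, 6.58 and 6.47 with IMQ+PA and 6.30, 6.40, 6.47 and 6.33 with IMQ, beside 6.32 to 6.51 with PA and 6.26 to 6.43 with mock treatment. The lowest IMQ+PA array and the highest IMQ array both read 6.47. Its rise of 0.21 ± 0.06 (adjusted p = 0.0222) lost its call without any one of IMQ+PA replicates 1 and 2 and IMQ replicates 1 and 4. Sec22c had a difference of -0.09 ± 0.09 (adjusted p = 0.513).

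**Figure D2:**
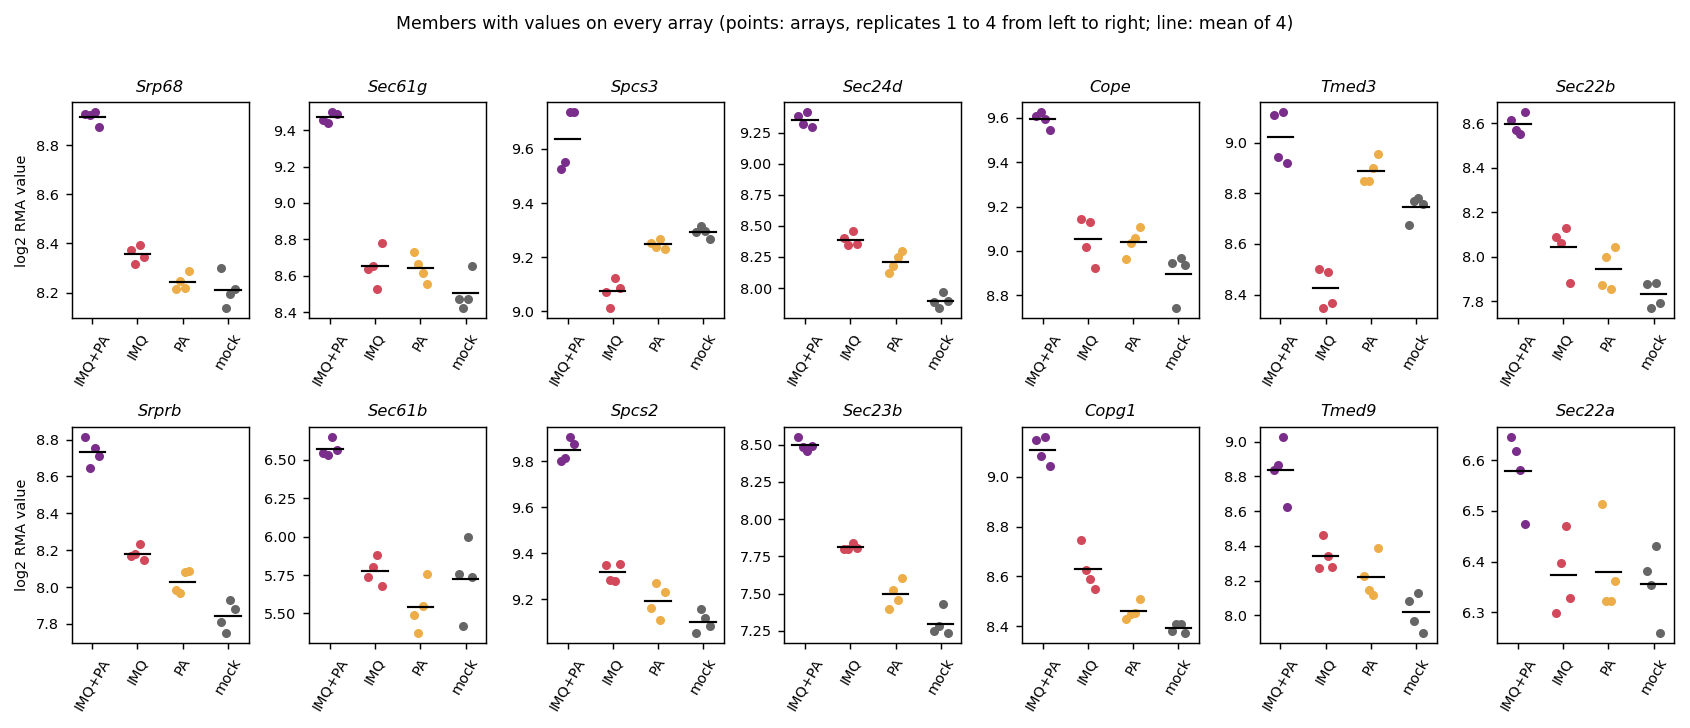
Log2 RMA values on all 16 arrays for the 14 genes with values given in full, a pair from each of the 7 role groups, on a scale of its own for each gene. Points are arrays and lines are means of 4, with IMQ+PA at the left and mock at the right. The IMQ+PA points lie above those of the 3 other groups in every panel but 2, since in Tmed3 they overlap with PA and in Sec22a they overlap with PA.

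Without IMQ, few of the same genes passed the test with PA. In PA cells 4 of the 60 genes rose relative to mock (6.67%) and 0 fell, beside 1.05% of all genes called higher and 0.442% lower, and the median change was 0.09 for the members and 0.01 for all genes. The 4 were Sec24d (0.32 ± 0.05, adjusted p = 0.00398), Sec11c (0.22 ± 0.05, adjusted p = 0.0416), Srpr (0.21 ± 0.04, adjusted p = 0.0266) and Ssr2 (0.20 ± 0.04, adjusted p = 0.0289). Positive estimates were more frequent than calls, with 52 of 60 members above 0, beside 12093 of 22180 genes. Only the call on Sec24d held when any single array was left out. The count fell to 1 without PA replicate 3, PA replicate 4, mock replicate 1 or mock replicate 2, to 2 without PA replicate 2 or mock replicate 4, and to 0 without the 5 arrays with Il6 signal, where the median was 0.07.

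The change with PA was larger in the presence of IMQ for 29 of the 60 genes and smaller for 0, by the interaction term of the limma fit. This is 48.3% of the members, beside 6.58% of all genes with a positive interaction called and 7.01% with a negative one. The median interaction was 0.22 for the members and -0.01 for all genes. Sec61b had the largest, 0.98 ± 0.14 (adjusted p = 0.000204), since its change with PA was 0.80 with IMQ and -0.18 ± 0.10 without it. Sec61g followed with 0.68 ± 0.09 (adjusted p = 5.43e-05), Sec24d with 0.65 ± 0.07 (adjusted p = 1.3e-05), Spcs3 with 0.61 ± 0.07 (adjusted p = 2.93e-05) and Srp68 with 0.53 ± 0.06 (adjusted p = 2.17e-05). By role, the interaction was called for 3 of 8 SRP genes, 7 of 11 channel genes, 3 of 5 signal peptidase genes, 8 of 14 COPII genes, 4 of 9 COPI genes, 3 of 10 p24 genes and 1 of 3 Sec22 homologs. Without the 5 arrays with Il6 signal these counts were 2, 6, 2, 3, 1, 0 and 0. Srpr was one of the risers with no called interaction, at 0.06 ± 0.06 (adjusted p = 0.628), having changed by 0.27 with IMQ and 0.21 without it.

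Without the 5 arrays with Il6 signal, 14 of the 29 interaction calls remained and the median was 0.21. Those 14 were Sec61b, Sec61g, Sec61a1, Ssr1, Ssr2, Tram1, Srp68, Srprb, Spcs2, Spcs3, Sec24d, Sec23b, Sec16a and Cope. Called interactions over all genes also became fewer without these arrays. The calls on Sec11a, Sec16a, Sec23a, Sec24c, Srp14, Ssr3 and Tmed10 were each lost without at least 1 single array, and the member count lay between 22 and 27 when arrays were left out one at a time. In the comparison of IMQ+PA with IMQ, which uses none of those 5 arrays except for the shared spread, 41 of the 43 calls remained and the median stayed at 0.30.

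**Figure D3:**
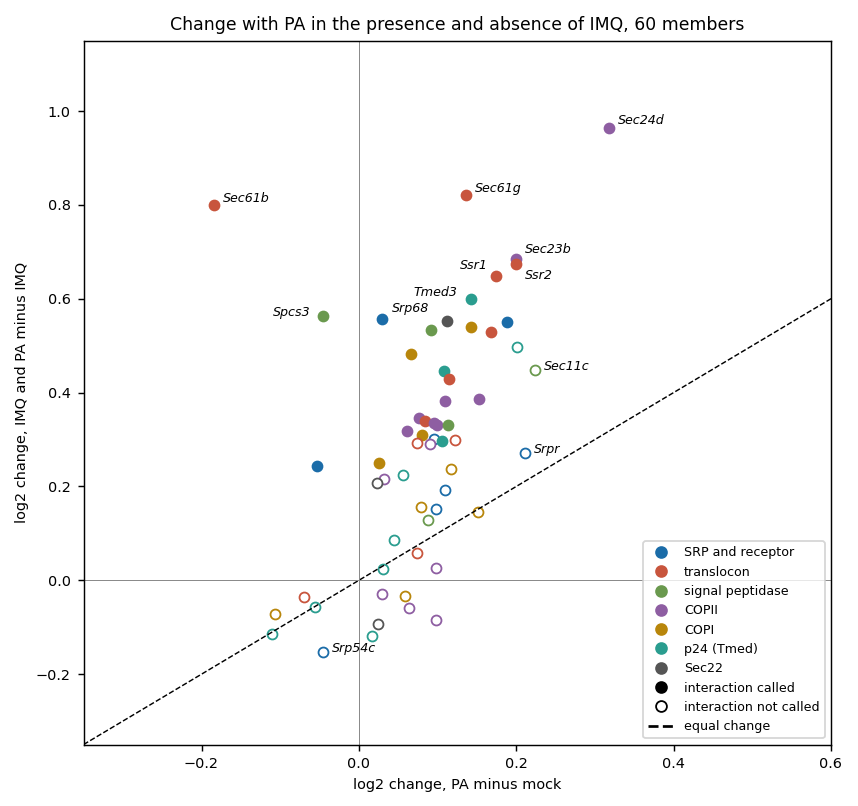
Log2 change with PA in the presence of IMQ (vertical axis, IMQ+PA minus IMQ) against the change with PA in its absence (horizontal axis, PA minus mock) for the 60 genes, with n = 4 arrays in each group. The 2 comparisons share no arrays, filled points have a called interaction, and the dashed line marks equal change. The 29 filled points all lie above the line, with Sec61b, Sec61g and Sec24d highest and Srpr, an open point, close to it.

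IMQ alone raised more of the machinery than it lowered. In IMQ cells 28 genes rose and 7 fell relative to mock, which is 46.7% and 11.7% of the members beside 17% and 17.9% of all genes, so the share that fell was below that of all genes, and the median change was 0.14 for the members and 0.01 for all genes. The rises were led by Srp54c (0.84 ± 0.08, adjusted p = 1.64e-07), the inner coat subunits Sec23a (0.69 ± 0.05, adjusted p = 6.36e-09), Sec23b (0.51 ± 0.05, adjusted p = 9.08e-07) and Sec24d (0.49 ± 0.05, adjusted p = 7.91e-07), the p24 gene Tmed5 (0.55 ± 0.05, adjusted p = 3.75e-07) and the receptor subunit Srpr (0.54 ± 0.04, adjusted p = 6.04e-08). Srp54c read 9.44 to 9.72 on the IMQ arrays and 8.61 to 8.87 on the mock arrays, and 9.31 to 9.49 and 8.60 to 8.86 on the IMQ+PA and PA arrays, so its level was higher in both groups with IMQ. Its changes with PA, -0.15 ± 0.08 with IMQ and -0.05 ± 0.08 without it, did not pass the threshold.

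The 7 that fell were Sec22c (-0.67 ± 0.09, adjusted p = 1e-05), Copz2 (-0.44 ± 0.07, adjusted p = 4.41e-05), Tmed3 (-0.32 ± 0.06, adjusted p = 0.000317), Spcs3 (-0.22 ± 0.05), Ssr1 (-0.20 ± 0.04), Tram1 (-0.19 ± 0.04) and Srp14 (-0.17 ± 0.06, adjusted p = 0.0435). For 5 of these, Tmed3, Spcs3, Ssr1, Tram1 and Srp14, PA added to IMQ raised the level that IMQ alone had lowered, though these comparisons share the IMQ arrays. Ssr1 is an example, with 9.65 to 9.79 on the IMQ+PA arrays, 9.05 to 9.11 on the IMQ arrays, 9.41 to 9.53 on the PA arrays and 9.23 to 9.33 on the mock arrays. All 4 groups were separate, with IMQ alone lowest and IMQ+PA highest. Sec22c read 5.83 to 6.05 with IMQ+PA, 5.82 to 6.26 with IMQ, 6.66 to 6.77 with PA and 6.56 to 6.85 with mock treatment, lower in both groups with IMQ. Copz2 likewise read 6.36 to 6.67 with IMQ+PA and 6.55 to 6.63 with IMQ, against 6.83 to 7.04 with PA and 6.95 to 7.07 with mock treatment.

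By role, IMQ alone raised 6 of 8 SRP genes and lowered 1, raised 7 of 14 COPII genes and lowered 0, and raised 5 of 9 COPI genes and lowered 1. The channel group had 3 of 11 higher (27.3%) and 2 lower (18.2%), and the signal peptidase 1 of 5 in each direction (20%). The p24 genes had 5 of 10 higher and 1 lower, and the Sec22 homologs 1 of 3 in each direction. With all arrays, 17% of all genes were called higher and 17.9% lower, and both shares were smaller without the arrays with Il6 signal. The signal peptidase shares and the lower share of the channel group were thus near those of all genes. Without the arrays with Il6 signal the counts higher were 4 for SRP, 5 for COPII, 1 for COPI, 1 for the channel group, 0 for the signal peptidase, 4 for p24 and 0 for Sec22, and the counts lower were 2 for the channel group, 1 each for COPI, p24 and Sec22 and 0 for the others. Sec61g and Sec61b, among the largest risers when PA was added, had 0.15 ± 0.06 and 0.05 ± 0.10 with IMQ alone (adjusted p = 0.085 and 0.778). Without the arrays with Il6 signal, which leaves 1 mock array, 15 genes were called higher, 20 of the 35 calls remained and the median was 0.10. The calls on Copb1, Copg2, Sec16a, Sec31a, Sec61a1, Srp14, Srp68 and Tmed8 were lost without at least 1 single array, and those on Copz1 and Tmed9 with the mean of their probe sets (0.06 and 0.16, adjusted p = 0.617 and 0.166). The summed level of the neutrophil markers was 10.93 to 11.02 with IMQ and 12.40 to 12.45 with mock treatment. The neutrophil list was split, with 2 markers called higher (S100a8 1.52 and the dim Camp 0.89) and 2 lower (Mmp8 -1.70 and S100a9 -0.71). The summed level of the dendritic cell and macrophage markers was 14.23 to 14.28 with IMQ and 14.47 to 14.51 with mock treatment. Within the dendritic cell and macrophage list 3 markers were called higher and 6 lower, from -1.71 for Itgax to 1.55 for Adgre1. The fibroblast markers summed to 8.47 to 8.49 with IMQ and 7.61 to 7.69 with mock treatment, with 1 of 5 called, Dcn, at 3.10 ± 0.14. The 7 plasma and B cell markers, of which 5 were dim, summed to 8.30 to 8.37 with IMQ and 8.16 to 8.21 with mock treatment. Among them 1 was called, Sdc1, at 0.27 ± 0.05 (adjusted p = 0.00092). The part of these marker shifts in the changes with IMQ was not tested.

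In cells that had PA, adding IMQ raised 44 of the 60 genes and lowered 2, which is 73.3% and 3.33% beside 16.8% and 18.5% of all genes. Relative to mock, IMQ+PA raised 48 and lowered 2, which is 80% and 3.33% beside 18.4% and 18.1% of all genes, with a median change of 0.35 for the members and -0.01 for all genes. Against mock, 4 genes rose more than 2-fold, namely Sec24d (1.46 ± 0.05, 2.75-fold), Sec23b (1.2 ± 0.05, 2.30-fold), Sec23a (1.07 ± 0.05, 2.11-fold) and Ssr2 (1.03 ± 0.04, 2.05-fold), with adjusted p between 1.56e-12 and 2.78e-11. The 2 lower genes were Sec22c (-0.76 ± 0.09, adjusted p = 2.08e-06) and Copz2 (-0.51 ± 0.07, adjusted p = 8.03e-06) in this comparison, and the same 2 genes against PA (-0.79 ± 0.09 and -0.41 ± 0.07). The calls against PA on Sec24a, Sec61a2, Tmed2 and Tram1 were lost without at least 1 single array. Without the arrays with Il6 signal, 43 of the 46 calls against PA and 42 of the 50 against mock remained. Over the 6 comparisons 53 of the 60 genes were called at least once and 7 in none, namely Sec62, Sec24b, Sec31b, Spcs1 and the dim Sec16b, Tmed6 and Tmed11.

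Paralogs of the same coat or complex subunit had unequal estimates when PA was added to IMQ. The estimate for Sec24d was 0.63 above that for Sec24c on the log2 scale, Copg1 was 0.52 above Copg2, Sec61a1 0.47 above Sec61a2, Sec31a 0.44 above Sec31b and Sec16a 0.42 above the dim Sec16b. Likewise Sar1a was 0.32 above Sar1b, Sec23b 0.30 above Sec23a and Sec24a 0.24 above Sec24b. In these 8 pairs of 10 the array-by-array differences between the paralogs did not overlap between IMQ+PA and IMQ, which gives the smallest p that an exact two-sided permutation test of 4 against 4 arrays allows (0.0286 from 70 permutations). Adjusted over the 20 tests made (10 pairs in 2 comparisons) this is 0.0519, so 0 pairs passed a threshold of 0.05. Copz1 exceeded Copz2 by 0.22 and Sec11c exceeded Sec11a by 0.12, both with an adjusted p of 0.0762.

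With IMQ alone minus mock the order was not the same in every pair. The estimate for Sec23a was 0.17 above that for Sec23b, the opposite order to that with PA added, and Sec24d was 0.51 above Sec24c, the same order (adjusted exact p = 0.0519 for each). Copz1 was 0.65 above Copz2 (adjusted exact p = 0.0519), the widest split of that comparison. Sar1a was 0.15 below Sar1b (adjusted exact p = 0.0762). Without mock replicate 2 or mock replicate 3, the adjusted exact p was 0.0476 for Sec23a and Sec23b, Sec24c and Sec24d, and Copz1 and Copz2. Sar1a and Sar1b without replicate 2 and Sec31a and Sec31b without replicate 3 reached the same value. The unadjusted p of the pairs named first stayed at the smallest that 3 against 4 arrays allow, 0.0286. Their adjusted value moved only because more tests were tied at that smallest p, so it adds no support for these pairs.

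**Figure D4:**
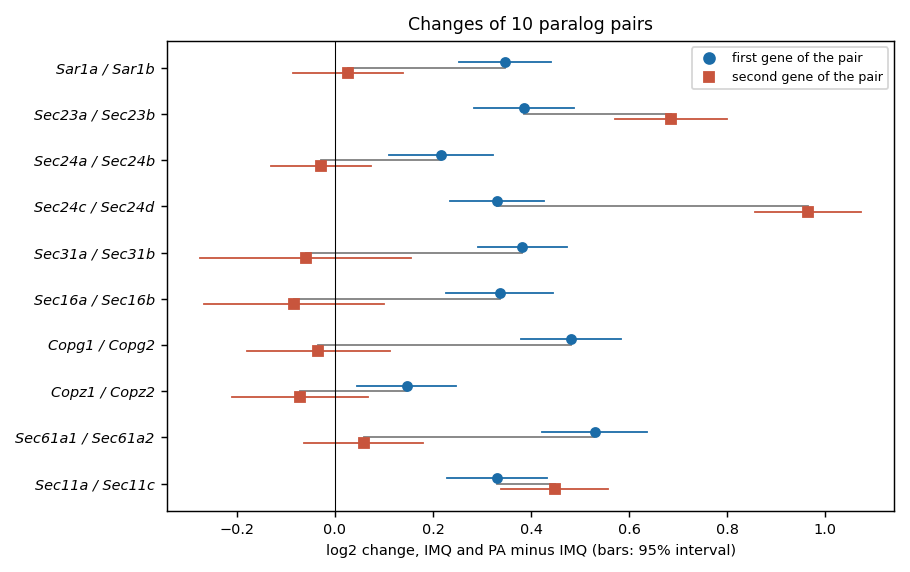
Log2 change in IMQ+PA minus IMQ for the 2 genes of each of 10 paralog pairs, as limma estimates with 95% intervals from 4 arrays in each group. Circles are the gene named at the left of each label and squares the gene at the right, joined by a line. The Sec24c and Sec24d pair is the widest apart (0.33 and 0.96). The intervals of Sec11a and Sec11c overlap, as do those of Copz1 and Copz2.

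Genes that act beside this machinery were taken from lists written out by function. Of 17 genes for ER exit and cargo capture, 10 rose (58.8%) and 0 fell with PA added to IMQ (median 0.24), beside 11.6% and 9.44% of all genes. The KDEL receptors, which return escaped ER proteins, spanned the range of the called genes, with Kdelr3 at 0.84 ± 0.08 (adjusted p = 8.88e-07) and Kdelr2 at 0.70 ± 0.05 (adjusted p = 1.21e-08) the highest and Kdelr1 at 0.19 ± 0.05 (adjusted p = 0.00944) the lowest. Lman1, the lectin receptor that carries glycoproteins out of the ER, rose by 0.58 ± 0.04 (adjusted p = 2.55e-08), and Preb, the exchange factor that loads Sar1 with GTP, by 0.47 ± 0.05 (adjusted p = 3.35e-06). Of 26 genes for Golgi tethers, membrane fusion and the ARF cycle, 16 rose (61.5%) and 0 fell (median 0.22). Bet1 (0.71 ± 0.09), Stx5a (0.52 ± 0.05) and Bet1l (0.44 ± 0.05), SNAREs of ER-to-Golgi and Golgi traffic, and Arfgap3 (0.52 ± 0.06), which acts on ARF1 on COPI vesicles, had the largest changes, with adjusted p between 8.91e-07 and 2.71e-05.

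Of 16 measured genes for other routes of membrane insertion, 2 rose (12.5%) and 4 fell (25%) with PA added to IMQ, beside 11.6% and 9.44% of all genes, with a median of -0.0013. Emc2, a subunit of the ER membrane protein complex, read on average 9.31 with IMQ+PA, 9.92 with IMQ, 9.83 with PA and 9.84 with mock treatment, a change of -0.61 ± 0.04 (adjusted p = 1.67e-08). Ccdc47 (-0.47 ± 0.05, adjusted p = 8.08e-06) and Ncln (-0.23 ± 0.06, adjusted p = 0.00971), parts of the machinery for proteins with many membrane spans, and Tram2 (-0.30 ± 0.07, adjusted p = 0.00437), the homolog of Tram1, also fell. Tram1 and Tram2 thus changed in opposite directions. Sgta (0.15 ± 0.05) and Emc8 (0.14 ± 0.05) rose. The interaction was negative and called for 5 of these 16 genes, Emc2, Ccdc47, Tram2, Ncln and Nomo1 (31.2%, beside 7.01% of all genes), and positive and called for 0. Without the arrays with Il6 signal it was called for 2 of the 16, and 0 of the 16 were called higher and 4 lower with PA added to IMQ.

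Of 11 transcription factors and sensors known to act on secretory genes, 3 rose and 3 fell (27.3% each way) with PA added to IMQ. Of all genes 11.6% were called higher and 9.44% lower. Creb3l2, a membrane-bound factor known in mouse cartilage to act on Sec23a, rose by 1.12 ± 0.07 (means of 7.59 with IMQ+PA and 6.48 with IMQ, adjusted p = 1.77e-08), and its interaction was 0.91 ± 0.11 (adjusted p = 1.85e-05). Ddit3 rose by 0.55 ± 0.07 and Atf6 by 0.33 ± 0.05 (adjusted p = 1.81e-05 and 6e-05). Creb3l1, a close homolog of Creb3l2, fell by 1.05 on the log2 scale (SE 0.12, adjusted p = 6.41e-06), with means of 6.42 with IMQ+PA, 7.46 with IMQ, 5.65 with PA and 5.65 with mock treatment. The pair thus differed in pattern, Creb3l1 being highest with IMQ alone and Creb3l2 with both agents. Atf6b (-0.31 ± 0.05) and Atf4 (-0.18 ± 0.04) fell, and Xbp1, whose mRNA is spliced when the ER is stressed, had a difference of 0.09 ± 0.04 (adjusted p = 0.107) in total signal, which does not tell the spliced from the unspliced form.

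**Figure D5:**
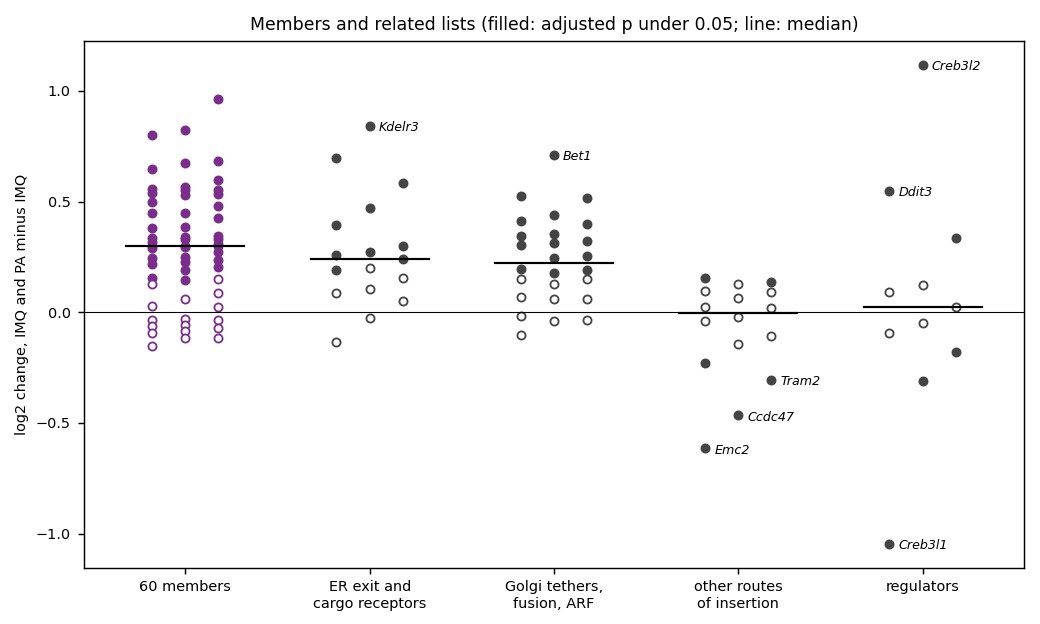
Log2 change in IMQ+PA minus IMQ for the 60 genes and 4 related lists of 17, 26, 16 and 11 measured genes, with 4 arrays in each group. Points are genes, filled where the adjusted p was under 0.05, and lines are list medians. The members, the exit and cargo genes and the Golgi genes have filled points only above 0, while the other insertion genes and the regulators have filled points on both sides.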

How the data were processed

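The deposited values are log2 values made with RMA through affy, per the submitters' processing notes, which give no versions. The genome build is not given in the sources used here. Per the labels' protocols, 200 ng of RNA per sample was labelled with the WT PLUS kit and hybridised to 1-colour arrays. RMA corrects background, quantile-normalises arrays and summarises probes. Precision is limited by the number of arrays, 4 in each group.

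Of 41345 probe sets 23521 carried a single symbol. For 1082 genes with several, the one with the highest mean was used. All 60 member symbols matched RefSeq by gene number.

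All 16 arrays were fitted with limma 3.58.1 in R 4.3.3 (4 group means, moderated variances, two-sided tests), with Benjamini-Hochberg adjustment over 22180 genes and calls at 0.05. The steps were tested on simulated data. The members, the gene lists and the tests were chosen with earlier results of these data known. Full values are given for the pair in each role group with the highest absolute change in IMQ+PA minus IMQ and for the pair with the highest absolute interaction. Related lists are given as counts with up to 4 called genes each way, and a few further members were named after their values were seen. Paralog tests used the exact permutation test on array differences between both genes. The alternatives are in the closing section. Asna1, Wrb and Camlg were not analysed here.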

Additional observations from a re-analysis of the deposited data

Results flagged for a closer look

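Among the 14 genes with full values, each group of 4 arrays was checked for 1 array far from the rest (Dixon's test at the 95% level). Of 56 such groups 1 was found, where chance gives about 1 in 20. It was Cope on mock replicate 2, which read 8.7413 on the log2 scale, below 8.94 to 8.97 on the other mock arrays.

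The change with PA differed between cells with and without IMQ for 29 genes by the interaction term, in all of them upwards. In the channel group the interactions were 0.9842 for Sec61b, 0.6849 for Sec61g, 0.474 for Ssr2, 0.4733 for Ssr1, 0.3615 for Sec61a1, 0.3134 for Tram1 and 0.2551 for Ssr3. In the SRP and its receptor they were 0.5262 for Srp68, 0.3623 for Srprb and 0.2969 for Srp14, and in the signal peptidase 0.6088 for Spcs3, 0.4411 for Spcs2 and 0.2169 for Sec11a. COPII gave 0.6474 for Sec24d, 0.4858 for Sec23b, 0.2724 for Sec31a, 0.2692 for Sar1a, 0.2569 for Sec23ip, 0.2411 for Sec16a, 0.2327 for Sec23a and 0.2305 for Sec24c. COPI gave 0.4149 for Copg1, 0.3967 for Cope, 0.2294 for Copb2 and 0.2238 for Copa. The p24 genes gave 0.4564 for Tmed3, 0.3389 for Tmed5 and 0.1918 for Tmed10, and the Sec22 homologs 0.4408 for Sec22b.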

How the results depend on the processing

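No change that was called turned its direction under the alternatives run. The count of members called higher in PA minus mock, 4, moved most relative to its size. It was 2 after repeated quantile normalization, 1 with array medians set equal, 11 with a variance trend and robust moderation, 1 with the replicate block, 7 with dim genes left out, 0 with only the compared groups fitted and 0 without the arrays with Il6 signal, with 1 to 5 when single arrays were left out. Without the arrays with Il6 signal, 15 in place of 28 members were called higher in IMQ minus mock, and 14 in place of 29 had a called interaction. Single arrays left out gave 23 to 28 and 22 to 27 for these. Repeated quantile normalization called 1 member (Tmed8) lower in IMQ+PA minus IMQ. There, 39 of 43 calls held under every alternative. Copb1, Copz1, Sec22a and Srp14 did not. The cause was not tested, apart from the fewer arrays where some were left out.

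Replicate numbers were not used to pair the samples in the main fit, since 5 of 24 same-numbered pairs correlated above 0.1 in their deviations (range -0.267 to 0.27). Of these 5, 4 were among the 6 pairs of replicate 3, which were all positive and ranged from 0.053 to 0.27. Whether the arrays of replicate 3 share a batch was not tested. With the replicate block, 42 members were called higher in IMQ+PA minus IMQ, 26 higher and 6 lower in IMQ minus mock, and 24 had a called interaction, without Sec11a, Sec23a, Srp14, Ssr3 and Tmed10.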
